A study of Homo sapiens with 8 samples.

Results

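The 9 genes described here are the steroid receptors ESR1 and PGR and the transcription factors GATA3, FOXA1, XBP1, TFAP2A, TFAP2B, TFAP2C and SPDEF. Together they mark the luminal, hormone-responsive state of breast epithelium. They were chosen by name, with earlier results of these data known. Every probe set whose platform annotation holds exactly 1 of these symbols was taken. This gave 9 of the 8793 probe sets in the table, 1 for each of 9 genes among 7713 that a probe set names alone, and 8 of the 9 passed the filter on low signals. The probe set of PGR did not pass.

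The data are messenger RNA signals from 8 Affymetrix HG-Focus arrays in 4 groups of 2. ZR75-1, a breast cancer line called ER-positive in the labels, was transfected with a plasmid carrying HSD17B14 (2 arrays) or with the empty vector (2 arrays). SKBR3, a breast cancer line called ER-negative in the labels, was likewise given the HSD17B14 plasmid (2 arrays) or the empty vector (2 arrays). HSD17B14 encodes a hydroxysteroid dehydrogenase that can oxidise estradiol to the weaker estrogen estrone. All 4 groups grew in phenol-red free medium with 4% serum, received FuGene-6 and a plasmid, and were harvested 48 h later. Transfection was transient, nothing in the labels gives the share of cells that took up the plasmid, and no hormone treatment is named. Each group was run in duplicate, and since separate cultures are not stated the p-values cover the scatter of these arrays, which may be technical.

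Estrogen receptor alpha, the product of ESR1, is a nuclear receptor that binds DNA when estradiol occupies it, and the progesterone receptor gene PGR is one of its classical targets. FOXA1 is a pioneer factor that opens chromatin for it, and GATA3 acts with both in a cross-regulatory circuit that maintains luminal identity. The AP-2 factors TFAP2A, TFAP2B and TFAP2C bind GC-rich motifs and act at many luminal genes, XBP1 drives the unfolded protein response and is abundant in luminal tumours, and SPDEF is an ETS-family factor of secretory luminal epithelium.

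HSD17B14 followed the plasmid on all 8 arrays, at 107.5 and 135.3 with it against 17.8 and 2.1 without it in ZR75-1, and at 650.7 and 743.6 against 2.0 and 4.2 in SKBR3. The arrays labelled SKBR3 went against their label. SKBR3 cells are known to carry an amplified ERBB2 gene, yet ERBB2 signals were 95.9 to 226 on the ZR75-1 arrays and only 25.9 to 46.8 on the SKBR3 arrays, which are therefore called SKBR3-labelled. The same 4 arrays carried high signals of the mesenchymal marker VIM, at 3646 to 5326, where the ZR75-1 arrays had 0.4 to 25.7. The epithelial keratin KRT8 was present on them at 360.3 to 499.6, against 2252 to 2530 in ZR75-1. Summed over the 12 luminal markers, signals were 19480 to 23700 in ZR75-1 and 5099 to 6476 in the SKBR3-labelled cells. By the test set out below 10 of the 12 were higher in ZR75-1 with either plasmid, while KRT7 had 72.9 to 152.3 against 180 to 195.3. Over the 9 mesenchymal markers on the array the sums were 76.4 to 101.3 and 4092 to 6103, and VIM made up most of the latter. Of the 6 tested mesenchymal markers, 3 (VIM, LOX and AXL) were lower and 1, COL1A1, was higher in ZR75-1 with either plasmid. LOX passed the filter on low signals only through its SKBR3-labelled arrays and COL1A1 only through its ZR75-1 arrays, so both had to differ. AXL could not have passed that filter without its SKBR3-labelled arrays. No line difference below can be given without the SKBR3-labelled arrays, so each holds for cells with this profile. In bulk RNA, fewer cells of a type and less RNA per cell cannot be told apart.

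Signals are MAS5 values on a linear scale, and each array was scaled to about the same trimmed mean. A signal of 17.6 was taken as the common floor. It is the highest of the arrays' 40th percentiles, and a group with every array below it has no measured level. Differences are on the log2 scale, with limma's standard error or 95% interval from a fit over all 6251 probe sets that passed the filter, and genes were called at p under 0.05 after Benjamini-Hochberg adjustment. Probe sets differ in how brightly they respond, so levels are compared between arrays and never between genes.

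The stretches upstream of the members' annotated starts were read for motifs of the factors they encode, because these genes are known to act on one another. RefSeq (GRCh38.p14) held 22 windows for 8 of the 9 genes, with none for TFAP2C, and the 250 bases before each start were searched on both strands for motifs. The forkhead form TGTTTGC (reverse complement GCAAACA) occurred in 2 of the 22 windows, upstream of FOXA1 and GATA3, and in 3.23% of all 35116 windows. The AP-2 form GCCNNNGGC, which reads the same on both strands, occurred in 6 of the 22 windows, upstream of PGR, GATA3 and XBP1, and in 19.8% of all windows. A single arm of the estrogen response element, TGACC (reverse complement GGTCA) occurred in 9 of the 22 windows, upstream of ESR1, PGR, GATA3, XBP1 and TFAP2A, and in 32.6% of all windows. Windows of a gene can overlap, and for both the AP-2 form and this arm the same PGR stretch was counted in 2 windows. The endoplasmic reticulum stress element, CCAAT and CCACG spaced by any 9 bases, occurred upstream of XBP1 alone among the members and in 0.074% of all windows. The full estrogen response element, GGTCA and TGACC spaced by any 3 bases, holds that arm on either side and was in 0 of the 22 windows and 0.0399% of all. A second forkhead form, TGTTTAC (2.98% of all windows), and the GATA forms AGATAA (9.17%) and TGATAA (6.66%) were also in 0 of the 22. A match is a string of letters and no evidence of binding. The 4 stretches below show the forkhead, AP-2 and stress element matches in capitals, 5′ to 3′ along the gene's strand, for the pioneer factor, for GATA3, and for XBP1.
FOXA1 forkhead, chr14:37595438-37595499, minus strand: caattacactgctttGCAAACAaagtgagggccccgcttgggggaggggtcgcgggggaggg
GATA3 forkhead, chr10:8045155-8045241, plus strand: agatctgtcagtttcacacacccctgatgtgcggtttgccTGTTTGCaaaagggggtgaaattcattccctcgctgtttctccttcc
GATA3 AP-2, chr10:8045083-8045158, plus strand: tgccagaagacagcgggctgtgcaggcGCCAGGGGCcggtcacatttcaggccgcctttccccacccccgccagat
XBP1 stress element, chr22:28800570-28800661, minus strand: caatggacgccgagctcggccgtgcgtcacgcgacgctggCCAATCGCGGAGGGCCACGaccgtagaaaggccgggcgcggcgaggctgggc

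The first question is how far the luminal program separated the lines. All 8 tested members were higher in ZR75-1 than in the SKBR3-labelled cells with either plasmid, and for all 8 the ZR75-1 and SKBR3-labelled arrays did not overlap. The median log2 difference of the 8 was 2.05 with HSD17B14 and 2.46 with the empty vector, where the median of all tested probe sets was -0.06 and -0.04. TFAP2B passed the filter only through its ZR75-1 arrays and so had to differ, while the other 7 were above the percentile of the filter on at least 3 SKBR3-labelled arrays. The median of those 7 was 1.99 with HSD17B14 and 2.15 with the vector. Differences between these lines were common. Of all tested probe sets, 33.2% were called with HSD17B14 (15.1% higher and 18.1% lower in ZR75-1) and 40.2% with the empty vector (19.6% higher and 20.7% lower). The share called higher in both comparisons, which share no array, was 12.5%. Arrays did not overlap, with ZR75-1 higher, for 33.5% of probe sets with HSD17B14 and 32.8% with the vector, and with ZR75-1 lower for 37.3% and 33.4%. In 19.8% all 4 ZR75-1 arrays lay above all 4 SKBR3-labelled ones. The actin 3'/5' ratio, a measure of RNA integrity, was 2.83 and 2.66 in ZR75-1 against 2.28 and 3.09 in the SKBR3-labelled cells with HSD17B14, and 2.03 and 2.02 against 3.602 and 2.996 with the vector. With this ratio as a covariate, calls over all probe sets with the vector numbered 571 in place of 2516. The 8 members were still called (limma adjusted p from 0.0011 to 0.0334). The GAPDH 3'/5' ratio was 0.90 and 0.88 in ZR75-1 against 0.81 and 0.89 in the SKBR3-labelled cells with HSD17B14. With the vector it was 1.08 and 1.04 against 0.91 and 0.87, opposite in direction to actin.

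**Figure D1:**
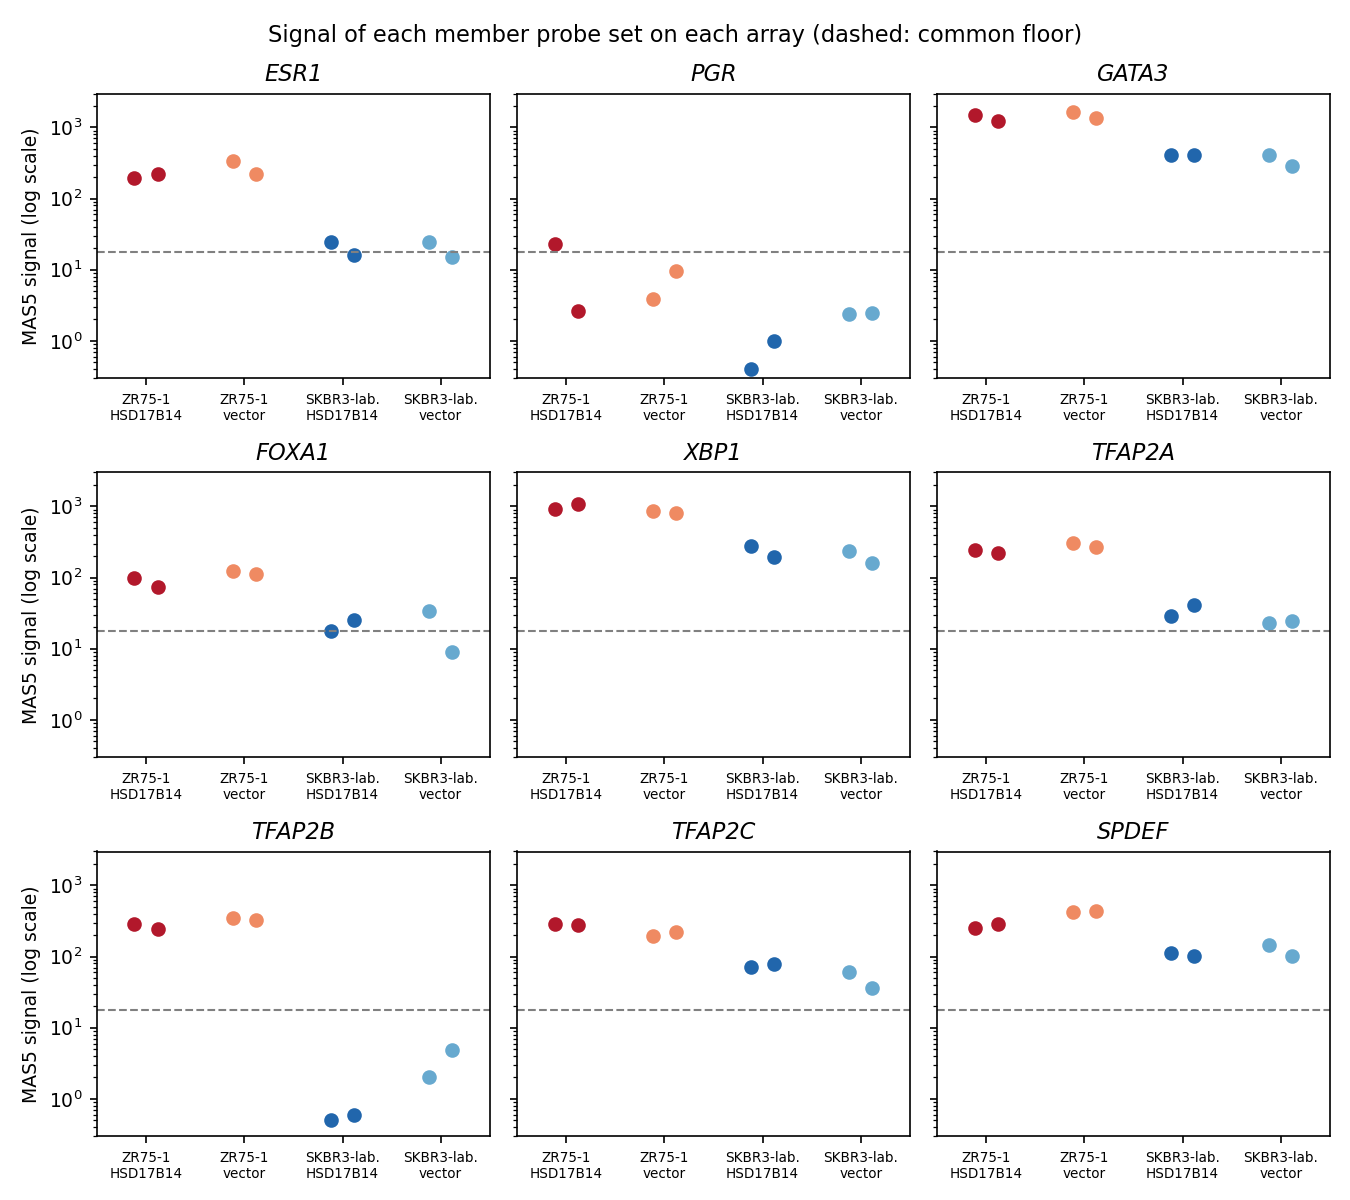
MAS5 signal (log axis) of the 9 member probe sets on each of the 8 arrays, 2 points per group, with the common floor of 17.6 as a dashed line. The ZR75-1 points lie above the SKBR3-labelled points in all panels, while in the PGR panel 7 of the 8 arrays lie under the floor.

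Among the receptors, ESR1 had signals of 194.5 and 224.4 in ZR75-1 with HSD17B14, against 24.6 and 16 in the SKBR3-labelled cells with HSD17B14. With the empty vector the signals were 341.6 and 225 in ZR75-1, against 24.4 and 14.9 in the SKBR3-labelled cells. The lines were thus far apart with either plasmid, and in each SKBR3-labelled group 1 array lay above the floor and 1 below it. The difference was 3.40 ± 0.34 with HSD17B14 (adjusted p = 1.48e-05) and 3.86 ± 0.34 with the vector (adjusted p = 3.94e-06, SE, n = 2 arrays per group), or 10.5-fold and 14.5-fold. With all values raised to the floor it was still 3.33 and 3.74.

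PGR, the progesterone receptor, could not be placed in either line. Its signals were 22.8 and 2.6 in ZR75-1 with HSD17B14 and 0.4 and 1.0 in the SKBR3-labelled cells with HSD17B14. With the vector they were 3.9 and 9.7 in ZR75-1 and 2.4 and 2.5 in the SKBR3-labelled cells. Only the first ZR75-1 array with HSD17B14 rose above the floor, so no fold is given. Without the filter on low signals limma gave the line difference of PGR an adjusted p of 0.103 with HSD17B14 and 0.467 with the vector.

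FOXA1, the pioneer factor, had signals of 97.5 and 74.2 in ZR75-1 with HSD17B14 against 18 and 25.6 in the SKBR3-labelled cells, and of 112.7 and 122.5 against 8.9 and 33.4 with the vector. It was higher in ZR75-1 by 1.99 ± 0.52 with HSD17B14 (adjusted p = 0.0118) and by 2.77 ± 0.52 with the vector (adjusted p = 0.00131). FOXA1 had the largest adjusted p of the 8 with either plasmid, and its SKBR3-labelled vector arrays differed 3.75-fold from each other. Its difference with the vector was 1.81 without the second of these arrays (adjusted p = 0.00356), 3.72 without the first (adjusted p = 8.86e-05) and 4.74 with the actin ratio as a covariate (adjusted p = 0.0128). Its call with HSD17B14 was lost without the first ZR75-1 array with HSD17B14 (1.79, adjusted p = 0.087), without the first SKBR3-labelled array with HSD17B14 (1.73, adjusted p = 0.0787) and with a prior that does not depend on the mean (1.99, adjusted p = 0.0679).

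GATA3, the zinc-finger factor of luminal differentiation, was well above the floor in both lines. Signals were 1516 and 1221 in ZR75-1 with HSD17B14 against 405.9 and 404.7 in the SKBR3-labelled cells, and 1639 and 1353 against 416.4 and 284 with the vector. The SKBR3-labelled cells thus had a measurable but lower level. The difference was 1.75 ± 0.19 with HSD17B14 (3.36-fold, adjusted p = 3.2e-05) and 2.11 ± 0.19 with the vector (4.33-fold, adjusted p = 5.35e-06).

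The AP-2 family showed unequal differences among its 3 members. TFAP2B, which encodes AP-2 beta, had signals of 291.6 and 246.3 in ZR75-1 with HSD17B14 and 345.9 and 328.6 with the vector. It lay far under the floor on all 4 SKBR3-labelled arrays, at 0.5 and 0.6 with HSD17B14 and 2.0 and 4.9 with the vector. TFAP2B was therefore at least 15.2-fold higher in ZR75-1 with HSD17B14 and at least 19.2-fold higher with the vector. It passed the filter only through its ZR75-1 arrays and so had to differ, and no p-value is given for these bounds.

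TFAP2A, AP-2 alpha, was low but above the floor in the SKBR3-labelled cells. Its signals were 244.8 and 222.3 in ZR75-1 against 28.9 and 40.9 with HSD17B14, and 311 and 268.7 against 23.1 and 24.2 with the vector. The difference was 2.76 ± 0.24 with HSD17B14 (6.79-fold, adjusted p = 5.23e-06) and 3.61 ± 0.24 with the vector (12.2-fold, adjusted p = 5.02e-07). TFAP2C, AP-2 gamma, differed less. It had 286.1 and 274.1 in ZR75-1 against 72 and 78.8 with HSD17B14, and 194 and 224.5 against 60.8 and 36.4 with the vector. This is a difference of 1.89 ± 0.24 (3.72-fold, adjusted p = 9.68e-05) with HSD17B14 and 2.15 ± 0.24 (4.44-fold, adjusted p = 2.94e-05) with the vector. With the vector, the 95% intervals of TFAP2A (3.09 to 4.14) and TFAP2C (1.62 to 2.68) did not overlap, and with HSD17B14 those of TFAP2A (2.24 to 3.29) and TFAP2C (1.36 to 2.42) did.

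XBP1 and SPDEF, the factors tied to secretion, were well above the floor on all 8 arrays. XBP1 had signals of 924.1 and 1068 in ZR75-1 against 275.8 and 192.2 with HSD17B14, and 870.9 and 798.3 against 233.6 and 158.8 with the vector. Its difference was nearly the same with either plasmid, 2.11 ± 0.21 with HSD17B14 (adjusted p = 1.66e-05) and 2.11 ± 0.21 with the vector (adjusted p = 1.15e-05). SPDEF had 255.6 and 286.6 in ZR75-1 against 112.5 and 102.3 with HSD17B14, and 425.4 and 430.9 against 146.5 and 101.1 with the vector. It had the smallest difference of the 8, at 1.34 ± 0.19 with HSD17B14 (2.52-fold, adjusted p = 2.3e-04) and 1.81 ± 0.19 with the vector (3.52-fold, adjusted p = 1.8e-05).

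**Figure D2:**
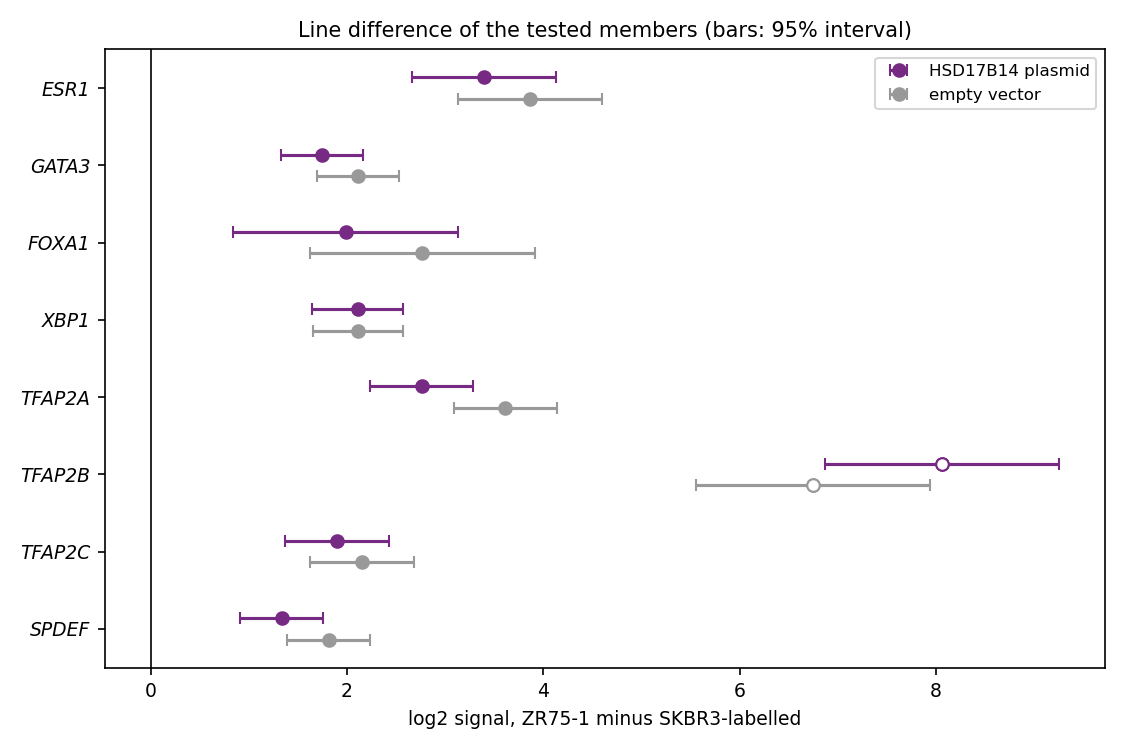
Log2 signal of ZR75-1 minus SKBR3-labelled cells for the 8 tested members, with HSD17B14 (purple) and with the empty vector (grey), 2 arrays per group. Bars are limma's 95% intervals, and all lie above 0. The open TFAP2B points are fitted values against a group under the floor, where only the bounds of 15.2-fold and 19.2-fold are measured.

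Leaving out TFAP2B, the differences with the vector were largest for ESR1, then TFAP2A, FOXA1, TFAP2C, GATA3 and XBP1 (both at 2.11) and SPDEF. Neighbours in this order had overlapping 95% intervals, so their order is not settled. The intervals of ESR1 (3.13 to 4.60) and GATA3 (1.70 to 2.53) did not overlap. By absolute difference with the vector ESR1 ranked 260th and SPDEF 1323rd of 6251 probe sets.

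**Figure D3:**
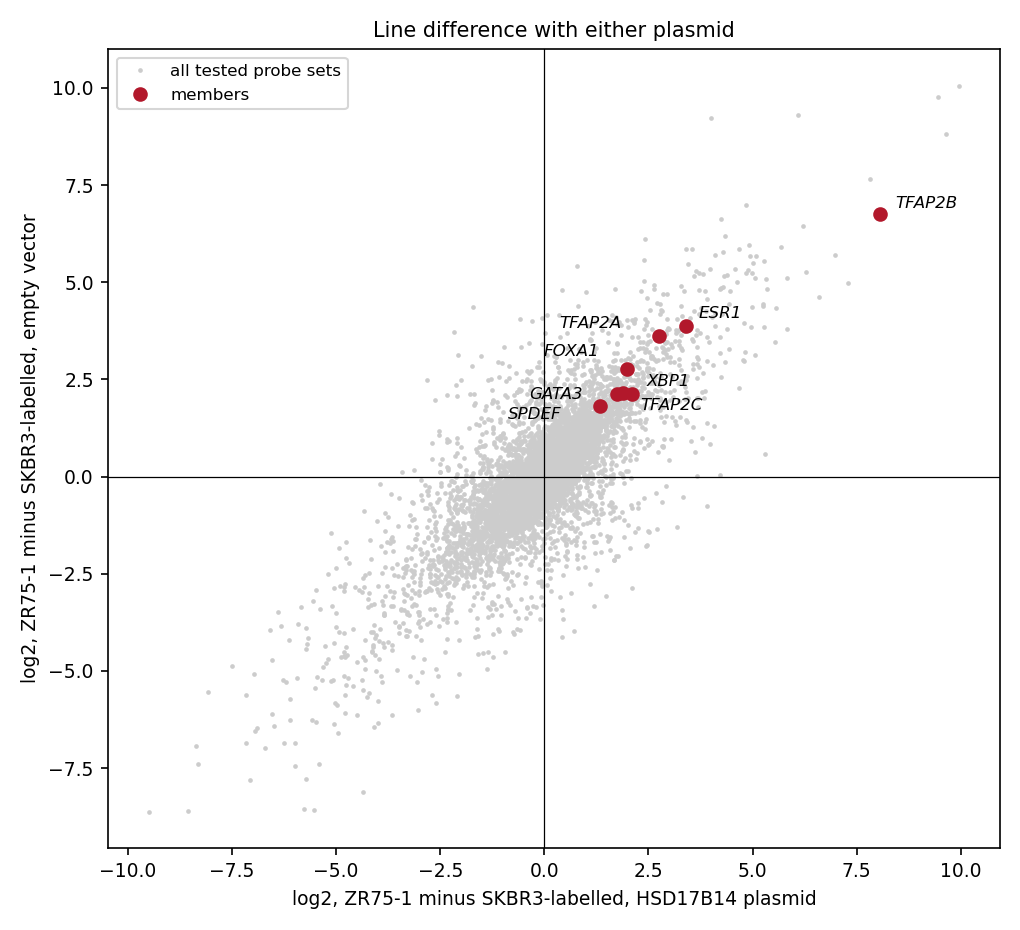
Each point is 1 of 6251 tested probe sets, with its log2 line difference (ZR75-1 minus SKBR3-labelled) with HSD17B14 on the x axis and with the empty vector on the y axis, from separate arrays. The 8 members (red) all lie in the upper right quadrant. TFAP2B, farthest out, is a fitted value against groups under the floor.

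Other nuclear receptors did not move as a group. Of 40 on the list, 20 were tested. With HSD17B14 3 of them were called higher and 4 lower in ZR75-1, and with the vector 5 higher and 4 lower (median log2 difference -0.04 and -0.28). NR2F6, an orphan receptor, was higher by 1.57 ± 0.25 with HSD17B14 and 2.55 ± 0.25 with the vector, as were RXRA, a partner of many nuclear receptors, at 0.86 and 1.49, and VDR, the vitamin D receptor, at 1.29 and 1.54. NR3C1, the glucocorticoid receptor, went the other way, at 36.9 and 40.9 in ZR75-1 against 178 and 214.8 with HSD17B14, and 24.3 and 28.3 against 163.1 and 186.1 with the vector (-2.33 ± 0.24, adjusted p = 1.94e-05, and -2.73 ± 0.24, adjusted p = 4e-06). PPARG, a receptor of lipid metabolism, lay under the floor on all ZR75-1 arrays (4.8 to 11.5) and at 55.2 to 73.9 in the SKBR3-labelled cells. It passed the filter only through its SKBR3-labelled arrays and so had to differ. PPARD and RXRB were also lower in ZR75-1 with either plasmid. Of 15 tested co-regulators, 3 were higher and 3 lower with HSD17B14, and 2 higher and 3 lower with the vector (median -0.12 and -0.06). They included PHB2, a repressor of estrogen receptor activity, higher by 1.48 ± 0.14 and 1.59 ± 0.14, and MED1, a Mediator subunit that binds nuclear receptors, lower at -1.26 ± 0.22 and -1.48 ± 0.22.

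Other epithelial transcription factors were split. Of 17 tested, 6 were called higher and 2 lower with HSD17B14, and 7 higher and 3 lower with the vector (median -0.06 and 1.57). ELF3, an epithelial ETS factor, was higher in ZR75-1 by 3.56 ± 0.22 with HSD17B14 and 2.89 ± 0.22 with the vector, and TRPS1, a GATA-type factor, by 2.78 ± 0.30 and 2.01 ± 0.30. ZNF217 and MYBL2 were higher too. Of the tested paralogs of FOXA1 and GATA3 on the list, FOXA2 and GATA6 went the opposite way and GATA2 did not pass (adjusted p = 1 with HSD17B14 and 0.371 with the vector). FOXA3, also on the list, was not tested. FOXA2, a paralog of FOXA1, had signals of 1.4 to 1.8 on the ZR75-1 arrays and 65.9 to 81.2 on the SKBR3-labelled ones, and GATA6, a paralog of GATA3, had 25.3 to 26.9 against 57.2 to 85.5. FOXA2 was called lower with either plasmid, but it passed the filter only through its SKBR3-labelled arrays and so had to differ. GATA6 was called lower with either plasmid (adjusted p = 0.00175 and 0.00641).

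Of 8 tested basal and mesenchymal factors, 3 were higher and 5 lower in ZR75-1 with HSD17B14, and 3 higher and 3 lower with the vector (median -2.10 and -1.27). TWIST1, MSX1 and MSX2 were the 3 higher ones with either plasmid. All lay under the floor on the SKBR3-labelled arrays, at 0.3 to 3.6, 0.6 to 4.5 and 1.5 to 16.1. TWIST1 and MSX1 passed the filter only through their ZR75-1 arrays and so had to differ, and MSX2 could not have passed it without them. SNAI2, a repressor of epithelial genes, had signals of 6 to 19.5 in ZR75-1 against 65.5 to 130.8 in the SKBR3-labelled cells. SOX9 was lower in ZR75-1 by -1.60 ± 0.22 and -1.13 ± 0.22. The chromatin protein HMGA2, which could not have passed the filter without its SKBR3-labelled arrays, had 5.9 to 31.9 against 136.1 to 160.2. These factors moved beside the high VIM signals of the SKBR3-labelled cells, whose part in the line differences was not tested. The list of unfolded protein response genes was mixed. It holds chaperone and translocon genes and also ATF4, ATF6 and ERN1, which are not classed as targets of XBP1. It had 4 of 16 higher and 2 lower with HSD17B14 and 5 higher and 2 lower with the vector (median 0.31 and 0.21). SDF2L1, a chaperone component, was higher by 2.17 ± 0.19 and 1.98 ± 0.19, while SSR1, a subunit of the translocon-associated complex, was lower at -1.60 ± 0.18 and -1.70 ± 0.18.

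**Figure D4:**
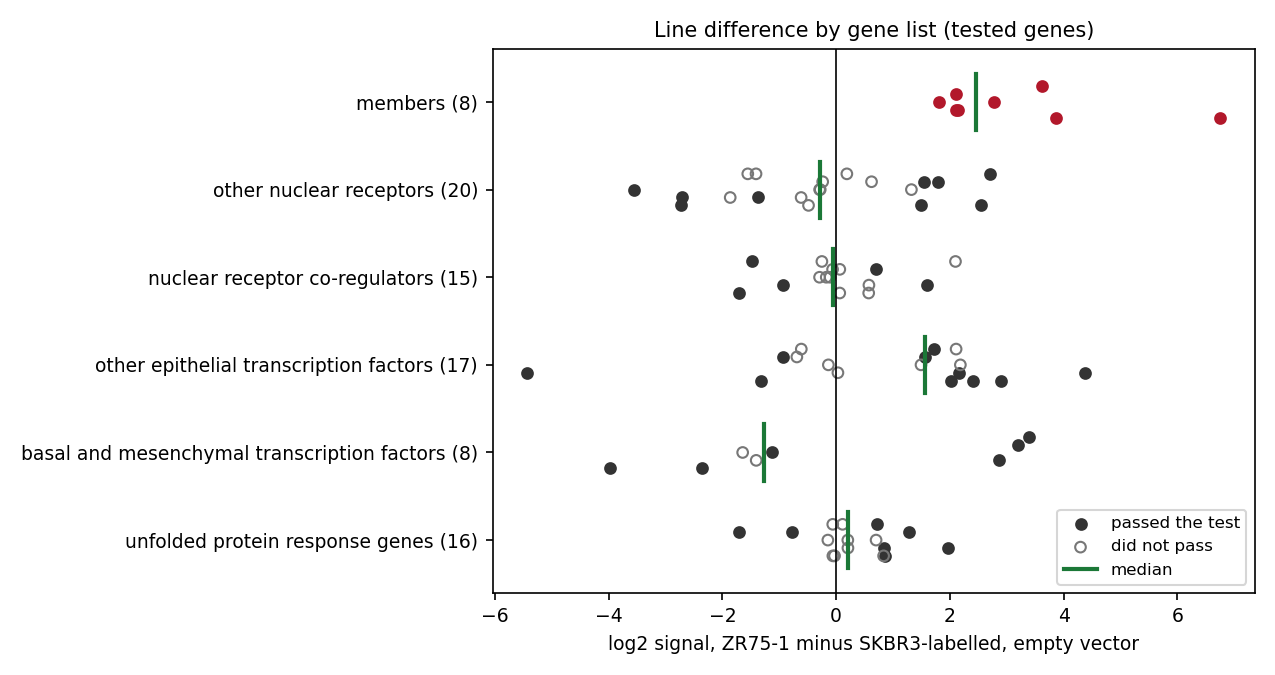
Log2 signal of ZR75-1 minus SKBR3-labelled cells with the empty vector for the 8 tested members and 5 gene lists, 1 point per gene (filled, passed the test; open, did not pass; green line, median). The members all lie above 1.8 (the highest, TFAP2B, is a fitted value against a group under the floor), while each other list has genes on both sides of 0.

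For each member, the genes with the most similar profile over the 8 arrays were found by the root-mean-square difference of log2 signals after each gene's own mean was subtracted. Nearest to ESR1 were CRIP2 (0.19), EMP2 (0.21) and NHERF1 (0.29), where the median over 5631 probe sets was 1.94 (for the other members but TFAP2B, 1.05 to 1.73). Nearest to GATA3 were IDH3G (0.18), PPP1CA (0.19) and BCKDHA (0.19), and nearest to FOXA1 were RAB17 (0.21), SLC1A4 (0.29) and SELENBP1 (0.29). TFAP2A lay nearest to HSPB1 (0.24), NHERF1 (0.25) and AGR2 (0.26), and TFAP2C to ZNF217 (0.23), POLD4 (0.24) and GLUL (0.25). XBP1 lay nearest to GLUL (0.18), ADAP1 (0.21) and ASAH1 (0.22), and SPDEF to EIF4EBP1 (0.12), YIF1A (0.14) and GM2A (0.15). For TFAP2B the nearest were AZGP1, SCNN1A and CGA, with no distance given because 4 of its arrays lie under the floor. These distances rest mostly on the contrast of lines, and no member was among another's nearest 3.

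The second question is whether HSD17B14 changed these genes within a line. In ZR75-1, 0 of the 8 tested members passed limma at the adjusted threshold against a background of 1.52% of all probe sets called (0.736% higher and 0.784% lower). An unadjusted p under 0.05 was reached by 1 member, SPDEF, and by 18% of all probe sets. Among the SKBR3-labelled arrays 0 passed, against a background of 0.992% (0.944% higher and 0.048% lower). An unadjusted p under 0.05 was reached there by TFAP2A, TFAP2C and TFAP2B, the last with all 4 arrays under the floor, and by 8.78% of all probe sets. Averaged over the lines, with 4 arrays per arm, 0 passed (background 1.5%, of which 1.22% higher and 0.288% lower), and SPDEF, TFAP2C and TFAP2B had an unadjusted p under 0.05, as had 14.2% of all probe sets. The members' median log2 effect was -0.32 in ZR75-1 and 0.25 in the SKBR3-labelled cells, where that of all tested probe sets was -0.04 and -0.01.

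SPDEF had the smallest p in ZR75-1, with the 255.6 and 286.6 of the HSD17B14 arrays below the 425.4 and 430.9 of the vector arrays. The groups did not overlap, which 26.3% of all probe sets did in this direction. The effect was -0.66 ± 0.19 (95% interval -1.08 to -0.24, adjusted p = 0.0994). It passed narrowly in 3 of 18 alternatives, with 32 added before log2 (-0.60, adjusted p = 0.0474), with ZR75-1 fitted alone (-0.66, adjusted p = 0.0427) and without the second SKBR3-labelled vector array (-0.66, adjusted p = 0.0496). The adjusted p over all 18 ran from 0.0427 to 0.577. In the SKBR3-labelled cells SPDEF had 112.5 and 102.3 against 146.5 and 101.1, which overlap (-0.18 ± 0.19), and the average over the lines was -0.42 ± 0.14 (adjusted p = 0.179), or -0.56 (adjusted p = 0.0307) without the second SKBR3-labelled vector array.

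ESR1 itself had 194.5 and 224.4 with HSD17B14 against 341.6 and 225 with the vector in ZR75-1. The upper HSD17B14 value and the lower vector value almost met, and the effect of -0.41 ± 0.34 had a 95% interval of -1.14 to 0.33 (adjusted p = 0.565). In the SKBR3-labelled cells, where ESR1 lay at the floor, the effect was 0.06 ± 0.34 (adjusted p = 0.992). GATA3 differed little in ZR75-1 (-0.13 ± 0.19, interval -0.55 to 0.29) and in the SKBR3-labelled cells (0.24 ± 0.19, interval -0.18 to 0.66). FOXA1 had wide intervals, -1.61 to 0.68 in ZR75-1 and -0.83 to 1.46 in the SKBR3-labelled cells, so neither a fall by 1 log2 unit in ZR75-1 nor a rise by 1 log2 unit in the SKBR3-labelled cells lies outside them.

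XBP1 had almost equal effects, 0.25 ± 0.21 in ZR75-1 (adjusted p = 0.574) and 0.26 ± 0.21 in the SKBR3-labelled cells (adjusted p = 0.874). In the AP-2 family, TFAP2C had higher signals with HSD17B14 in both lines without passing. It had 286.1 and 274.1 against 194 and 224.5 in ZR75-1 (0.42 ± 0.24, adjusted p = 0.391), and 72 and 78.8 against 60.8 and 36.4 in the SKBR3-labelled cells (0.68 ± 0.24, adjusted p = 0.416). Neither pair of groups overlapped, which 20.7% and 19.5% of all probe sets did in this direction. Averaged over the lines TFAP2C was at 0.55 ± 0.17 (adjusted p = 0.167), and without the first SKBR3-labelled vector array at 0.74 (adjusted p = 0.0304).

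TFAP2A differed in sign between the lines. It had 244.8 and 222.3 against 311 and 268.7 in ZR75-1 (-0.31 ± 0.24, adjusted p = 0.535) and 28.9 and 40.9 against 23.1 and 24.2 in the SKBR3-labelled cells (0.54 ± 0.24, adjusted p = 0.554). The test of the difference of effects gave -0.85 ± 0.34 (unadjusted p = 0.0282, adjusted p = 0.322), so it did not pass. For 0 of the 8 members did the plasmid effect pass as different between the lines, against a background of 0.624% (0.064% higher and 0.56% lower), and TFAP2A was the 1 with an unadjusted p under 0.05, which 13% of all probe sets had. TFAP2B had 291.6 and 246.3 against 345.9 and 328.6 in ZR75-1 (-0.33 ± 0.54, adjusted p = 0.806). In the SKBR3-labelled cells TFAP2B had 0.5 and 0.6 against 2.0 and 4.9, all under the floor, which allows no fold. Its groups did not overlap, as for 20.6% of all probe sets in this direction. Limma gave it an adjusted p of 0.353 there, and 0.0486 without the first SKBR3-labelled vector array.

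Technical measures moved beside these small effects, and their part was not tested except where a value is given. The actin 3'/5' ratio was 2.83 and 2.66 in ZR75-1 with HSD17B14 against 2.03 and 2.02 with the vector. With it as a covariate the SPDEF effect in ZR75-1 was -0.77 (limma adjusted p = 0.577). The GAPDH 3'/5' ratio went the other way, at 0.90 and 0.88 in ZR75-1 with HSD17B14 against 1.08 and 1.04 with the vector. The Bacillus spike-in control probe sets were high on 3 arrays, the second of ZR75-1 with HSD17B14 and the second of each SKBR3-labelled group, and low on the other 5. In the SKBR3-labelled cells the TFAP2C effect was 1.11 between the arrays with high spike-in and 0.24 between those with low spike-in (1 against 1), and that of TFAP2A was 0.76 and 0.32. Within the low arrays of ZR75-1 (1 against 2) SPDEF was at -0.74. The line differences kept their sign within each level, at 2.98 in the low and 3.81 in the high arrays for ESR1 with HSD17B14, and at 3.51 in the low arrays with the vector.

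**Figure D5:**
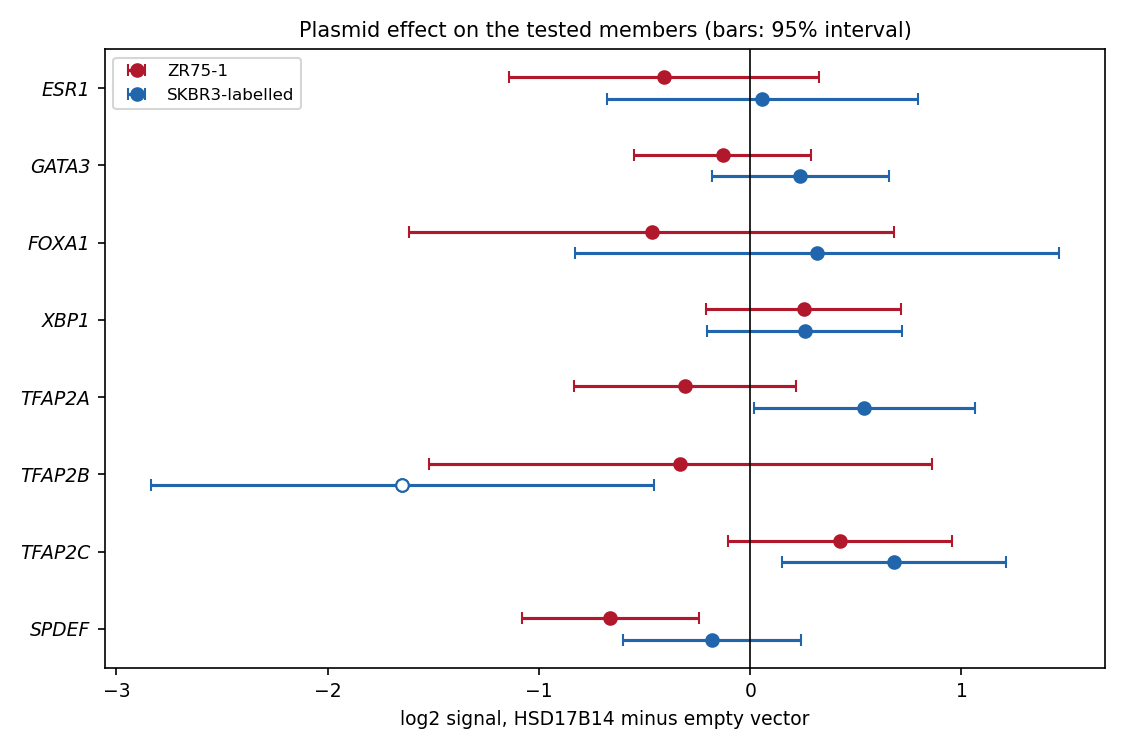
Log2 signal with HSD17B14 minus empty vector for the 8 tested members in ZR75-1 (red) and SKBR3-labelled cells (blue), 2 arrays per group, with limma's 95% intervals. No adjusted p is under 0.05, although the unadjusted intervals of SPDEF in ZR75-1 and of TFAP2A and TFAP2C in the SKBR3-labelled cells leave out 0. The open TFAP2B point, whose interval also leaves out 0, has all 4 arrays under the floor and gives no size.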

How the data were processed

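The authors deposited linear MAS5 signal intensity values for each array. MAS5 is named in the submitters' processing notes, and its version is not given in the sources used here. The deposited values had a trimmed mean of about 100.1 on every array. Of the 8746 probe sets that are not controls, 7840 carry 1 symbol in the platform annotation (388 several, 518 none here), updated through the gene ID in RefSeq's table. Signals under 1 were raised to 1 and log2 was taken. Probe sets above the array's 40th percentile on at least 2 arrays (6251) were fitted together with limma 3.58.1 in R 4.3.3 (4 group means, eBayes with a prior that depends on the mean, 4 residual degrees of freedom), and p-values were adjusted over all of them. The fit was tested on simulated data. With 2 arrays per group, their number limits precision. Across probe sets, correlations were 0.888 to 0.96 within groups and 0.682 to 0.768 between lines, given as a description.

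The members and lists were chosen with earlier results of these data known. Named were all members, HSD17B14 and ERBB2 as checks, the 3 nearest profiles of each member whose line difference passed with both plasmids, and up to 4 genes per list and direction called in both line comparisons. A gene outside the members stands for its brightest probe set. Alternatives were quantile normalization, median centring, no filter, 32 added before log2, values raised to the floor, another prior, the replicate number, spike-in level or actin ratio in the model, each line or plasmid fitted alone, and leaving out each array. Figures were drawn with matplotlib 3.10.9. Per-array outlier tests need 4 samples per group and were not run.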

Additional observations from a re-analysis of the deposited data

Results flagged for a closer look

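MUC1, a mucin of the luminal cell surface that is not one of the 9 genes, had a plasmid effect that differed between the lines by the test of the difference itself (ZR75-1 minus SKBR3-labelled, -2.38 ± 0.37, limma adjusted p = 0.0176). Signals were 567.1 and 413.3 with HSD17B14 against 1348 and 1034 with the vector in ZR75-1, and 26.7 and 24.4 against 9.5 and 15.1 in the SKBR3-labelled cells. The SKBR3-labelled vector arrays lay under the floor of 17.6, so the size of the difference is not well measured. With the actin ratio as a covariate, and with a prior that does not depend on the mean, 0 probe sets were called for this difference. The MUC1 call was therefore lost in both settings.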

How the results depend on the processing

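All 8 tested members stayed called higher in ZR75-1 with the vector in all 18 alternatives, and 7 or 8 with HSD17B14, FOXA1 being the exception. Adding 32 before log2 shrinks differences of dim genes, with ESR1 at 2.21 with HSD17B14 and FOXA1 at 1.13 with HSD17B14 and 1.53 with the vector, all called. The plasmid called 0 or 1 member per line: 1 in ZR75-1 (SPDEF) with 32 added before log2 and with ZR75-1 fitted alone, and 0 to 1 on leaving out an array in ZR75-1, in the SKBR3-labelled cells and for the average.

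Counts over all probe sets depended far more on the settings. The 95 calls of the plasmid in ZR75-1 were 23 with median centring, 62 without the filter, 262 with 32 added, 13 with the other prior, 19 with the spike-in block, 1 with the actin covariate, 152 with the line fitted alone and 13 to 134 on leaving out an array. In the SKBR3-labelled cells the 62 calls were 9 with the other prior, 37 with the actin covariate and 40 to 125 on leaving out an array. The 94 calls of the average were 165 with 32 added, 12 with the other prior and 58 to 221 on leaving out an array. The 39 calls of the difference of effects were 7 with median centring, 20 without the filter, 67 with 32 added, 0 with the other prior and with the actin covariate, and 5 to 42 on leaving out an array. The line difference with the vector fell to 571 calls with the actin covariate, and with HSD17B14 it ran from 1357 to 2188 on leaving out an array.

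Signs turned only for uncalled plasmid effects: GATA3 in ZR75-1 to 0.074 with median centring and 0.015 with the spike-in block, FOXA1 in the SKBR3-labelled cells to -0.18 with values raised to the floor, and with the actin covariate TFAP2B in ZR75-1 to 0.19 and ESR1 in the SKBR3-labelled cells to -0.05. On leaving out an array the effect ran from -0.286 to 0.026 for GATA3 in ZR75-1, and in the SKBR3-labelled cells from -0.299 to 0.413 for ESR1, -0.039 to 0.513 for GATA3, -0.638 to 1.27 for FOXA1, -0.021 to 0.536 for XBP1 and -0.45 to 0.086 for SPDEF. The cause of these changes was not tested. Same-numbered arrays of different groups did not deviate together (r from -0.04 to -0.01), so the numbers were not taken to pair arrays, although the 3 arrays with high spike-in are all numbered 2. With the replicate number as a block 8 members were called in each line comparison and 0 for the plasmid, as without it, and the plasmid had 104 calls in ZR75-1. Low signals limit ESR1, FOXA1, PGR and TFAP2B in the SKBR3-labelled cells.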

Other observations

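Among the 12 luminal markers, 2 surface genes gave the calls for the plasmid. MUC1 fell by 1.29 ± 0.26 on the log2 scale in ZR75-1 with HSD17B14 (limma adjusted p = 0.0379) and did not pass in the SKBR3-labelled cells (adjusted p = 0.107). CD24, a glycoprotein of the same surface, did not pass in either line alone but rose on average over the lines by 0.66 ± 0.13 (adjusted p = 0.0374), with 457.3 and 598.3 against 334.9 and 329.2 in ZR75-1 and 83.3 and 87 against 48 and 61 in the SKBR3-labelled cells. CD24 was named after its values were seen. For the calls of MUC1 in ZR75-1 and of CD24 the alternatives were not examined gene by gene.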
